A study of Mus musculus with 8 samples.

Results

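The genes of mitosis were described in pro-B cells of the mouse, B lineage precursors, as a set of 38 genes named by symbol for their part in cell division. The set was chosen with earlier results of these data known. All array probes that carried 1 of these symbols, or the older name Cdc2a of Cdk1, were taken, which gave 54 of the 39429 probes. Of these, 53 probes were kept as well above background on at least 2 of the 8 arrays, and 37 of the 38 genes entered the test, among 22928 genes or transcripts tested. The gene left out was Aurkb, the kinase of the chromosomal passenger complex, whose single probe did not reach well above background on any array. None of the 54 probes was saturated on any array.

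The cells came from BALB/c Rag1 null mice in every group, so that all of them lacked a recombinase that B cells need to pass beyond pro-B cells. Fetal liver (FL) pro-B cells were sorted from pools of on average 8 embryos at day 16 of gestation and were transduced with a let-7b retrovirus or with its empty vector, MSCV. Adult bone marrow (BM) pro-B cells were sorted from 2 mice per sort and were transduced with a Lin28b retrovirus or with its empty vector, pMIG. Lin28b binds the precursors of let-7 microRNAs and keeps them from being processed, so that a let-7 is added to fetal cells and an inhibitor of let-7 to adult cells. The cells grew on OP9, a mouse stromal cell line, with the cytokine IL-7. In each sort 12 wells of a 24-well plate received the transgene and 12 the empty vector, and cells with the GFP of the vector were sorted 4 days later. Each of the 4 groups, FL let-7b, FL empty vector, BM Lin28b and BM empty vector, held 2 arrays, numbered in the labels and described in the series' design text as individual sorts.

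Levels below are log2 of the background-corrected Agilent signal relative to the 75th percentile of the same array, so that a level of 0 lies at that percentile and a difference of 1 is a doubling. Differences come from limma over all 8 arrays, with its standard error, and a gene was called at a Benjamini-Hochberg adjusted p below 0.05 over all 22928 tested. All 4 BM arrays lay on 1 slide, while the first FL array of each group lay on slide 2 and the second on slide 3. The 75th percentile of signal was 271 on the second FL empty vector array, 467 to 488 on the other FL arrays and 1925 to 2234 on the BM arrays. The share of probes well above background was 68.5% with let-7b and 67.7% with empty vector on slide 2, 56.7% with let-7b and 56.0% with empty vector on slide 3, and 64.2 to 67.8% on slide 1. All 11 pro-B markers tested, among them Cd79a and Pax5, were well above background in every group.

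Mitosis begins when Cdk1, bound to its cyclins and freed of inhibitory phosphate by the Cdc25 phosphatases, phosphorylates its targets, and it ends when the anaphase-promoting complex has the cyclins destroyed. Between these steps the chromosomes condense, attach by their kinetochores to the spindle, wait for the spindle checkpoint, separate and are parted by cytokinesis. The genes are transcribed late in the cell cycle, and pro-B cells that grow with IL-7 are a dividing population. RNA of sorted cells in bulk cannot tell fewer cells in mitosis from less mitotic RNA per cell.

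A pair of promoter motifs is known for such genes, the cell cycle genes homology region (CHR), at which the DREAM and MuvB complexes bind, and the CCAAT box, at which NF-Y binds. Both were searched on either strand of the RefSeq promoter windows (build GRCm38.p6, 250 bases before to 50 after the start of the gene, 300 in all), the CHR as TTTGAA or TTTAAA. A window was on hand for 32 of the 38 genes. The CHR letters stood in 26 of these 32 windows (81.2%), against 27.8% of 27025 windows of all genes. A CCAAT box stood in 25 of the 32 (78.1%), against 37.9% of all windows, and both motifs in 22 (68.8%), against 10.9%. At least 2 CCAAT boxes stood in 17 of the 32 windows (53.1%), against 12.2%. Top2a and Ube2c held 6 CCAAT boxes each, and Plk1 held 3 CHR matches. A match of letters is a description and not a bound site.

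The windows of 4 genes are shown because they had the smallest p in the 2 comparisons that the values below turn on, Spc25 and Ndc80 with let-7b and Kif23 and Mad2l1 between the tissues. Motif matches are in capitals. Spc25 (chr2:69206164-69206463, minus strand) holds 1 CHR and 2 CCAAT boxes, Ndc80 (chr17:71526808-71527107, minus strand) 2 CHR matches and no CCAAT box, and Kif23 (chr9:61946750-61947049, minus strand) 1 of each. Mad2l1 (chr6:66534971-66535270, plus strand) holds neither.
Spc25: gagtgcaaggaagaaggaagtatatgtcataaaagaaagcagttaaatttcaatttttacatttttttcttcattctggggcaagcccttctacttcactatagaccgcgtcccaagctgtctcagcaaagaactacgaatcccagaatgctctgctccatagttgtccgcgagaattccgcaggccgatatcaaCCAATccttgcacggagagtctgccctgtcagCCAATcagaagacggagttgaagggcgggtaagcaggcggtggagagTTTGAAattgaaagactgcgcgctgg
Ndc80: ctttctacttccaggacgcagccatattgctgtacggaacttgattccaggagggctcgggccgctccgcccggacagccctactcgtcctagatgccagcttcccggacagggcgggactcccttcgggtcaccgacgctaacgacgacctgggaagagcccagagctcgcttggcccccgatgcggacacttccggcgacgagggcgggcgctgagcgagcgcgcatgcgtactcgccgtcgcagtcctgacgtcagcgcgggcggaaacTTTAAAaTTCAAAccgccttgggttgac
Kif23: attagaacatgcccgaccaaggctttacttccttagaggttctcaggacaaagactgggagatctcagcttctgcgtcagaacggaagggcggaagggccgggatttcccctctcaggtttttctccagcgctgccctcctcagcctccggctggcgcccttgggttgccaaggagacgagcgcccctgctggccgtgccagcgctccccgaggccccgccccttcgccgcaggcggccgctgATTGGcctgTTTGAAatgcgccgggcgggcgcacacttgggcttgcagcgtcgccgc
Mad2l1: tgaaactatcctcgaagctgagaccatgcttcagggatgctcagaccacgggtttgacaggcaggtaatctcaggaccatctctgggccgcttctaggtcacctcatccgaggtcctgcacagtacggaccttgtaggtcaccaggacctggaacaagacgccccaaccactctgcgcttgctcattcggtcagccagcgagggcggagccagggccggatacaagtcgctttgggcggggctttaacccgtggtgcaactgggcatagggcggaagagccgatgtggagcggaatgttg

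The microRNA that FL cells received is shown with its seed, bases 2 to 8, in capitals (RefSeq, mmu-let-7b-5p, chr15:85707325-85707346, plus strand).
let-7b: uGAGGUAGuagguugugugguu

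**Figure D1:**
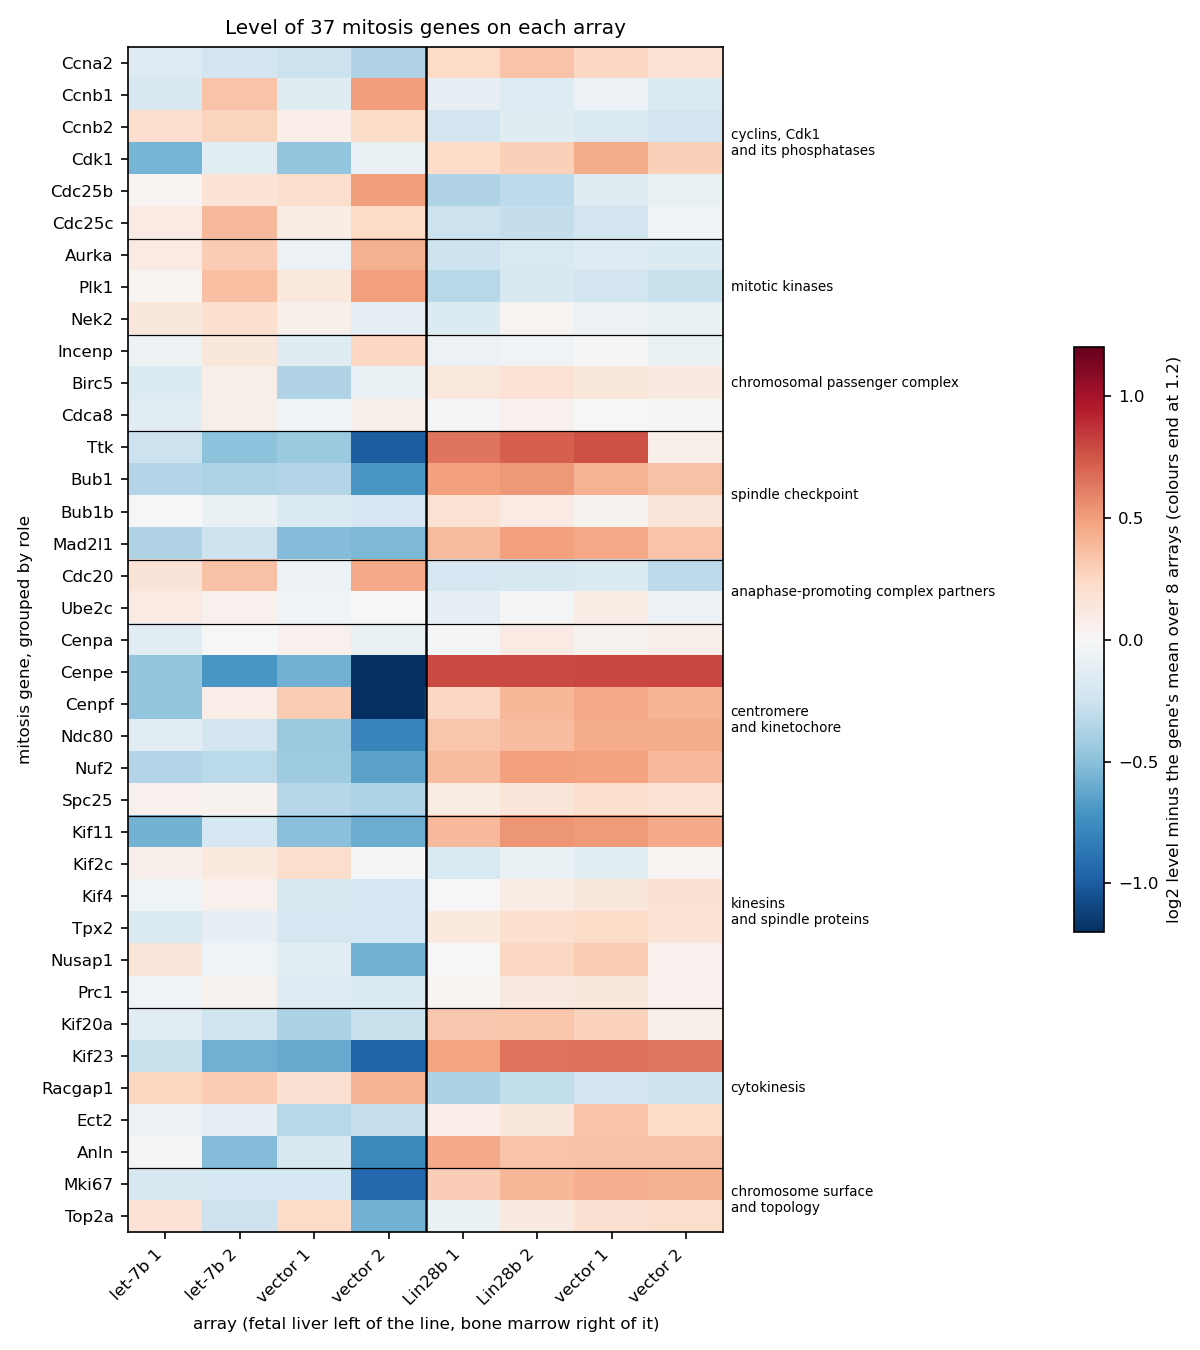
Level of the 37 tested mitosis genes (rows, grouped by role) on the 8 arrays (columns), as log2 level minus the gene's mean over the 8 arrays, FL arrays left of the line and BM arrays right of it. Most checkpoint and kinetochore genes are lower on the FL arrays, while Plk1, Cdc25b and Racgap1 are higher on the FL than on the BM empty vector arrays, and Cenpe (1.76) and Cenpf (-5.20) have their lowest level on the second FL empty vector array.

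The first comparison asked whether let-7b altered the mitosis genes of FL cells. No member was called, and the differences were small and mostly above 0. Of 37 members, 28 had a difference above 0, against 42.8% of all genes tested, and their median was 0.15, against -0.06 for all genes. The median was 0.10 on slide 2 and 0.16 on slide 3, where the medians of all genes were -0.01 and -0.12. Another background correction (normexp) turned the median of the members to -0.18, with 0.34 for all genes, so the direction depends on how background was treated. With quantile scaling the median was 0.17, as it was in the authors' deposited table of normalized values.

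limma called 0 of the 37 members with let-7b, against 0.0305% of all genes, and 2 members had an unadjusted p under 0.05, against 9.77%. The 2 were Spc25 and Ndc80, subunits of the Ndc80 complex, which holds spindle microtubules at the kinetochore. Spc25 (probe at mm9 chr2:69031953-69032012) lay at 4.44 and 4.43 on the FL let-7b arrays, against 4.05 and 4.02 on the FL empty vector arrays. Both let-7b arrays were above both controls, the difference was 0.40 ± 0.11 (SE, n = 2 per group, limma adjusted p = 0.36), and the slides gave 0.38 and 0.41. Ndc80 lay at 0.68 and 0.59 with let-7b and at 0.36 and 0.02 with empty vector. Its groups did not overlap either. The difference was 0.45 ± 0.15 (limma adjusted p = 0.444), or 0.32 on slide 2 and 0.57 on slide 3. The smallest two-sided p that exact permutation of 2 arrays against 2 allows is 0.333.

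Of the other centromere and kinetochore genes, Nuf2, the partner of Ndc80 in that complex, differed by 0.20 ± 0.14, and its let-7b arrays (0.76 and 0.79) lay above its controls (0.69 and 0.47). Cenpe, a kinesin that moves chromosomes to the spindle equator, differed by 0.44 ± 0.29. Its levels were 2.75 and 2.52 with let-7b and 2.64 and 1.76 with empty vector, so the groups overlapped and slide 3 held most of the difference (0.76, against 0.12 on slide 2). Cenpf, a large protein of the outer kinetochore, differed by -0.78 on slide 2 and by 1.49 on slide 3. The control array of slide 3 had the lowest 75th percentile of the 8 arrays (271). Cenpa, the histone H3 variant that marks centromeres, differed by -0.04 ± 0.13. The median of the 6 genes of this role was 0.38, and it was 0.04 with normexp.

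Each of the 4 spindle checkpoint genes had a difference above 0 with let-7b, and none passed. Ttk, the kinase Mps1 that starts the checkpoint, differed by 0.34 ± 0.30, Mad2l1, which holds back Cdc20, by 0.22 ± 0.13, Bub1, a kinase at kinetochores, by 0.16 ± 0.15 and Bub1b, its relative BubR1, by 0.15 ± 0.12. Their median of 0.19 was -0.11 with normexp. For Mad2l1, all 3 probes gave differences above 0, from 0.22 to 0.48. The let-7b arrays lay above the controls without overlap for Mad2l1, at 2.66 and 2.77 against 2.50 and 2.48.

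The cyclins and Cdk1 sat nearer to 0. Ccnb1 and Ccnb2, the B cyclins that activate Cdk1 at mitotic entry, differed by -0.11 ± 0.27 and 0.08 ± 0.12, Ccna2, the A cyclin of S phase and G2, by 0.12 ± 0.12 and Cdk1 by -0.06 ± 0.21. Cdc25b, a phosphatase that activates Cdk1, lay at 3.68 and 3.81 with let-7b, against 3.86 and 4.15 with empty vector. It was the single member whose let-7b arrays were both below both controls (-0.26 ± 0.15, limma adjusted p = 0.653), where 18.2% of all genes showed that order. The opposite order, both let-7b arrays above both controls, held for 16 of the 37 members, against 11.9% of all genes. The mitotic kinases Aurka, Plk1 and Nek2, which act on centrosomes and spindle, differed by 0.02 ± 0.19, -0.11 ± 0.19 and 0.19 ± 0.13.

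Among kinesins and spindle proteins, Nusap1, which bundles microtubules, differed by 0.40 ± 0.21, the chromosome kinesin Kif4 by 0.21 ± 0.12 and Prc1, a cross-linker of the spindle midzone, by 0.16 ± 0.12. Kif11, the kinesin that pushes spindle poles apart, differed by 0.16 ± 0.16, Tpx2, an activator of Aurora A, by 0.08 ± 0.12 and the microtubule depolymerase Kif2c by 0.00 ± 0.14. In cytokinesis, Kif23, the motor subunit of centralspindlin, lay at 0.99 and 0.68 with let-7b, against 0.65 and 0.30 with empty vector (0.36 ± 0.18, limma adjusted p = 0.609). Ect2, the exchange factor that activates RhoA at the cleavage furrow, differed by 0.21 ± 0.12, Racgap1, the partner of Kif23, by -0.01 ± 0.13 and the ring scaffold Anln by 0.22 ± 0.26. Mki67, the Ki-67 protein that coats mitotic chromosomes, differed by 0.37 ± 0.24, with 0.02 on slide 2 and 0.73 on slide 3, the slide of the dimmest control array.

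**Figure D2:**
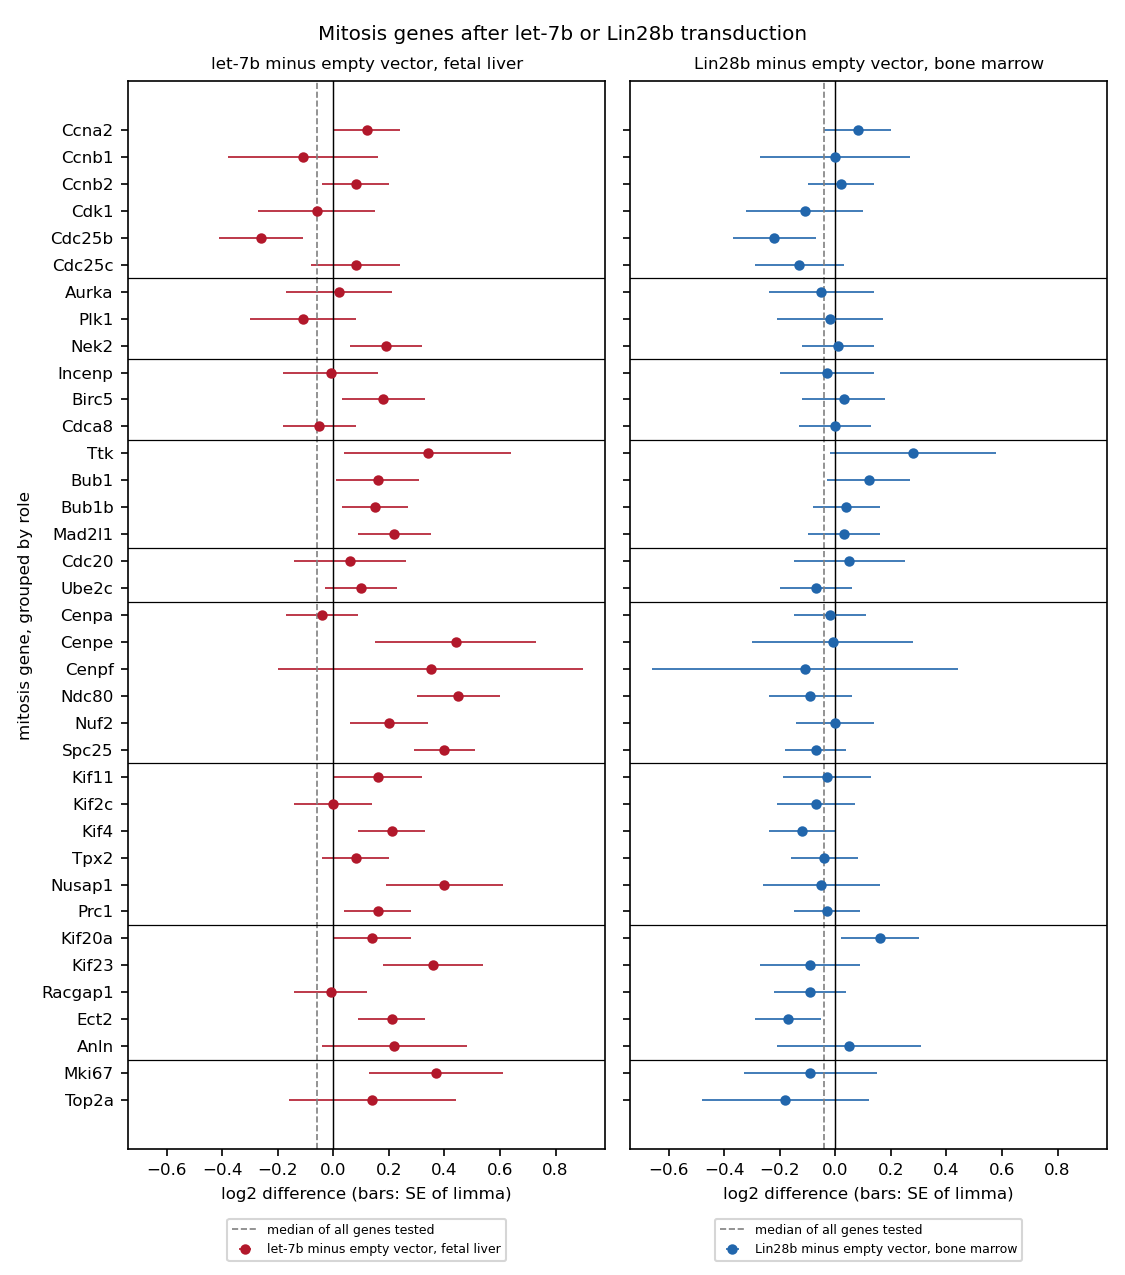
log2 difference of each of the 37 mitosis genes with its limma standard error, for let-7b minus empty vector in FL cells (left) and Lin28b minus empty vector in BM cells (right), n = 2 arrays per group, with a dashed line at the median of all genes tested. Most FL differences lie above 0 (28 of 37, a direction that normexp turned for the median), and the BM differences lie between -0.22 and 0.28.

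None of 15 stromal markers was called by limma with let-7b (smallest adjusted p = 0.27) or with Lin28b (adjusted p = 1), against 0.0305% and 0% of all genes. Their median difference was 0.90 with let-7b and 1.07 with Lin28b, against -0.06 and -0.04 for all genes. Differences above 0 were seen in 12 and 14 of the 15. An unadjusted limma p under 0.05 was seen in 6 and 9, against 9.77% and 3.57% of all genes. Their summed level was higher on the transgene arrays. The summed linear level of the 15 stromal markers tested, relative to the 75th percentile, was 17.2 to 22.0 with let-7b and 10.2 to 14.1 with empty vector in FL, where Lox was not well above background on either empty vector array. In BM it was 43.1 to 63.2 with Lin28b and 28.8 to 32.3 with empty vector. The part of stromal RNA in the mitosis values was not tested.

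The second comparison asked the same of Lin28b in BM cells, where the mitosis genes differed little. limma called 0 of the 37 members, and 0 of 22928 genes in all (0%), and 0 members had an unadjusted p under 0.05, against 3.57% of all genes. The median difference was -0.03, against -0.04 for all genes, and the members ranged from -0.22 to 0.28. A difference above 0 was seen in 13 of the 37, against 40.7% of all genes. The median SD between replicates over the members was 0.09 with let-7b and 0.16 with empty vector in FL, and 0.06 with Lin28b and 0.04 with empty vector in BM.

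The lowest difference was that of Cdc25b, at 3.29 and 3.33 with Lin28b, against 3.50 and 3.56 with empty vector (-0.22 ± 0.15, limma adjusted p = 1). Cdc25b was thus below both controls on every transgene array in both tissues. The Lin28b arrays lay below the controls without overlap in 12 members, against 32.3% of all genes, and above them in 2, against 18.4%. The 2 were Kif20a, a kinesin of cytokinesis, at 2.77 and 2.78 against 2.72 and 2.52, and Bub1, at 2.12 and 2.15 against 2.05 and 1.98. The highest difference was that of Ttk, at -0.72 and -0.65 with Lin28b, against -0.60 and -1.31 with empty vector (0.28 ± 0.30), and its groups overlapped. The Ndc80 complex genes Ndc80 (-0.09 ± 0.15), Spc25 (-0.07 ± 0.11) and Nuf2 (0.00 ± 0.14) differed by less than their standard errors.

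The difference between both treatment effects, let-7b in FL minus Lin28b in BM, was tested in the same model. A value above 0 was seen in 31 of 37 members, against 48.3% of all genes, and the median was 0.15, or -0.20 with normexp. limma called 0 of 37 members, against 0.00436% of all genes, and 1 member, Spc25, had an unadjusted p under 0.05, against 6.9% of all genes. For Spc25 the difference was 0.47 ± 0.16 (limma adjusted p = 0.604).

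The third comparison set FL cells against BM cells, both with empty vector. Most spindle checkpoint, kinetochore and cytokinesis genes were lower in FL cells, while B cyclins, Plk1 and Racgap1 were not. Of 37 members, 17 were lower and 3 higher in FL cells by limma's test. Over all genes, 19.5% were called lower and 40.1% higher (59.6% in either direction). The median difference was -0.37 over the members and 0.52 over all genes. Below the median of all genes lay 35 of the 37 members. That count was 28 with quantile scaling, 37 with normexp and 32 with only probes well above background on all 8 arrays. The median of all genes was 0.04, 0.98 and 0.37 in these settings, and 1.05 with no filter on dim probes. The members were bright, with a median level 4.05 to 5.06 above that of all genes on each array. The part of brightness in this count was not tested. The FL arrays lay below the BM arrays without overlap in 22 members, against 28.3% of all genes, and above them in 7, against 54.8%. Tissue, age, vector, slide and scan differed together, so that they cannot be told apart.

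Scaling sets where 0 lies in such a comparison. Quantile scaling moved the median of the members to -0.51 and that of all genes to 0.04. It called 20 members lower, among them all 17, and 1 higher, Racgap1. By the 75th percentile scaling, the differences of Racgap1 (0.54), Plk1 (0.55) and Cdc25b (0.47) were close to the median of all genes (0.52). With normexp 8 members were lower and 0 higher, and with only the 4 empty vector arrays in the fit 8 were lower and 0 higher. Leaving out BM empty vector array 1 left 7 calls and array 2 left 9, and leaving out BM Lin28b array 1 or 2 left 13. The shares of all genes called under these other settings are not given here. The 19.5% and 40.1% above hold for the 75th percentile scaling of all 8 arrays. The 7 genes called lower in all 15 settings tried were Bub1, Mad2l1, Cenpe, Ndc80, Nuf2, Kif11 and Kif23.

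In the kinetochore, Cenpe (probe at mm9 chr3:134936387-134936446) lay at 2.64 and 1.76 on the FL arrays, against 4.02 and 4.02 on the BM arrays. Both FL arrays were far below BM, although they differed from each other, and the difference was -1.82 ± 0.29 (SE, n = 2 per group, limma adjusted p = 0.00367). Ndc80 lay at 0.36 and 0.02, against 1.25 and 1.25 in BM (-1.05 ± 0.15, limma adjusted p = 0.00263). Nuf2 fell by 0.97 ± 0.14 on the log2 scale and Spc25 by 0.54 ± 0.11, while the differences of Cenpf (-0.99 ± 0.55) and Cenpa (-0.07 ± 0.13) did not pass. Of the 6 genes of this role 4 were called lower.

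The spindle checkpoint had 3 of 4 genes lower. Mad2l1 (mm9 chr6:66490836-66490895) lay at 2.50 and 2.48 in FL, against 3.48 and 3.36 in BM (-0.93 ± 0.13, limma adjusted p = 0.00218). Its groups were well apart, and all 3 of its probes were called lower, by -0.93 to -1.51. Bub1 fell by 0.91 ± 0.15 and Ttk by 1.13 ± 0.30, while Bub1b differed by -0.28 ± 0.12 (limma adjusted p = 0.0884). Ttk lay at -1.81 and -2.36 in FL, against -0.60 and -1.31 in BM.

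In cytokinesis, Kif23 (mm9 chr9:61767492-61767732) lay at 0.65 and 0.30 in FL, against 1.92 and 1.89 in BM (-1.43 ± 0.18, limma adjusted p = 0.00187), the smallest p among the members. Its partner in centralspindlin, Racgap1, lay the other way, at 3.83 and 4.05 in FL against 3.41 and 3.39 in BM (0.54 ± 0.13, limma adjusted p = 0.0158), and both its probes were called higher. Anln (-0.83 ± 0.26), Ect2 (-0.58 ± 0.12) and Kif20a (-0.49 ± 0.14) were lower. Of the kinesins and spindle proteins, Kif11 fell by 1.04 ± 0.16, Tpx2 by 0.41 ± 0.12 and Kif4 by 0.37 ± 0.12. Nusap1 (-0.53 ± 0.21), Prc1 (-0.25 ± 0.12) and Kif2c (0.15 ± 0.14) did not pass.

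At mitotic entry the genes were split. Ccna2 lay at 3.73 and 3.62 in FL, against 4.23 and 4.16 in BM (-0.52 ± 0.12, limma adjusted p = 0.014), and Cdk1 was lower (-0.65 ± 0.21, limma adjusted p = 0.0403). Ccnb1 (0.31 ± 0.27) and Ccnb2 (0.35 ± 0.12, limma adjusted p = 0.053) did not pass. Plk1 lay at 4.70 and 5.07 in FL, against 4.35 and 4.31 in BM (0.55 ± 0.19, limma adjusted p = 0.0483), and Cdc25b at 3.86 and 4.15, against 3.50 and 3.56 (0.47 ± 0.15, limma adjusted p = 0.0354). Cdc20, the activator of the anaphase-promoting complex, differed by 0.44 ± 0.20, and its ubiquitin-conjugating enzyme Ube2c by -0.03 ± 0.13. The passenger complex genes Incenp (0.09 ± 0.17), Birc5, which encodes survivin (-0.35 ± 0.15), and Cdca8, which encodes borealin (0.01 ± 0.13), did not pass. Mki67 was lower, at 5.43 and 4.70 in FL against 6.08 and 6.07 in BM (-1.01 ± 0.24, limma adjusted p = 0.0153), and Top2a, which untangles sister chromatids, differed by -0.37 ± 0.30.

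Several probes were kept for 12 of the members, and they agreed in sign for 9 of these 12 between the tissues with empty vector. For FL let-7b against BM Lin28b they agreed for 6 of the 12, with let-7b for 8 and with Lin28b for 7. Between the tissues with empty vector, Tpx2 and Cdk1 were called both ways. The second probe of Tpx2 (mm9 chr2:152720285-152720344) was higher in FL (1.12 ± 0.22), and another probe of Cdk1 (mm9 chr10:68799513-68799572) was also higher (1.14 ± 0.28). When the probes of a gene were averaged, Tpx2 differed by 0.36 and Cdk1 by 0.07, so the direction of these 2 rests on the choice of the brightest probe. The opposing probe of Tpx2 was dimmer (-0.62 in FL and -1.75 in BM) than the probe used (2.49 and 2.90). That of Cdk1 lay at -2.19 in FL and -3.33 in BM, against 1.38 and 2.03 for the probe used. The Cdk1 average also held a probe that was well above background on 3 of the 8 arrays. Ccnb1 had probes of both signs, from -0.39 to 0.40.

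**Figure D3:**
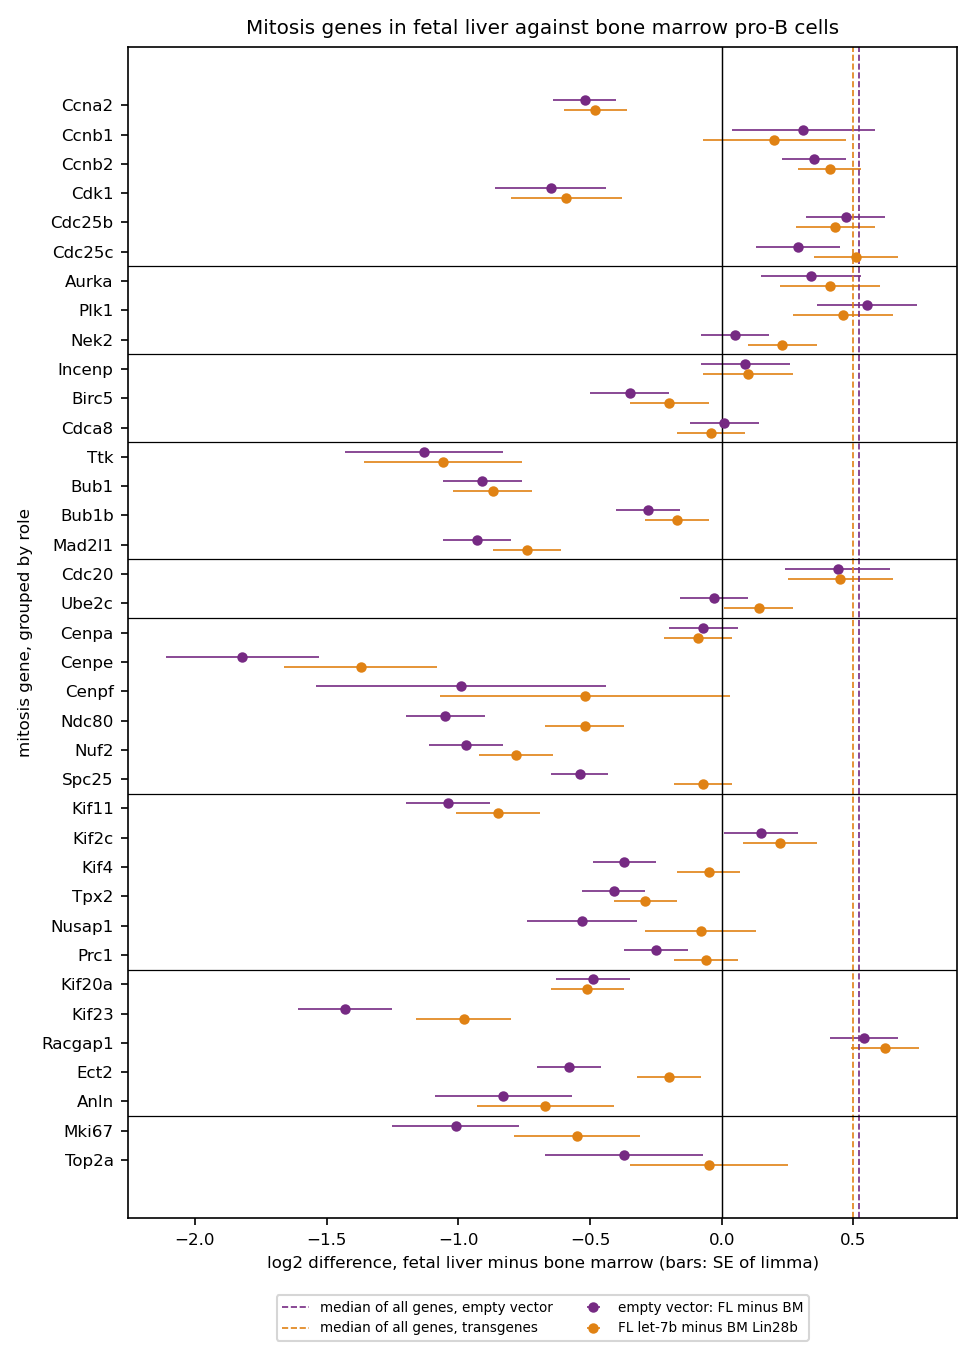
log2 difference, FL minus BM, of each of the 37 mitosis genes with its limma standard error, in purple for the empty vector arrays and in orange for FL let-7b minus BM Lin28b (n = 2 arrays per group), with dashed lines at the medians of all genes tested (0.52 and 0.50). Checkpoint and kinetochore genes lie left of 0 in both colours, and Racgap1 lies right of it (in orange at 0.62, and at -0.03 with normexp). Of 37 members, 35 lie left of each dashed line (28 in purple and 27 in orange with quantile scaling).

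The other 4 arrays were compared in the same way, FL let-7b against BM Lin28b, with the transgenes differing as well. They shared slides, scans and the estimate of spread with the empty vector arrays, so they were not an independent repeat. Tissue, age, vector, slide and scan differed together here too. Of 37 members 10 were lower and 4 higher, against 18.5% and 39.5% of all genes (58% in either direction). The arrays did not overlap in 19 members that were lower, against 29.1% of all genes, and in 10 that were higher, against 56.1%. The median was -0.09, against 0.50 for all genes, and again 35 of 37 lay below the median of all genes. Here the count was 27 with quantile scaling, 36 with normexp and 29 with only probes well above background on all 8 arrays. The 10 lower genes were all among the 17 of the empty vector arrays (58.8% of them), and 3 of them, Bub1, Kif23 and Mad2l1, were called in all 15 settings tried. Mad2l1 lay at 2.66 and 2.77 with let-7b, against 3.40 and 3.51 with Lin28b (-0.74 ± 0.13, limma adjusted p = 0.00494), and Kif23 at 0.99 and 0.68, against 1.73 and 1.91 (-0.98 ± 0.18, limma adjusted p = 0.00687). The 4 higher genes were Racgap1 (0.62 ± 0.13), Cdc25c (0.51 ± 0.16), Cdc25b (0.43 ± 0.15) and Ccnb2 (0.41 ± 0.12), of which Racgap1 (-0.03), Cdc25b (-0.17) and Ccnb2 (-0.23) lay below 0 with normexp. Spc25 differed by -0.07 ± 0.11 here and by -0.54 ± 0.11 on the empty vector arrays. Nuf2, among the 10 lower genes, differed by -0.78 with the probe used and by 0.05 with its dimmer probe. Leaving out BM Lin28b array 1 or 2 left 5 or 4 calls, and leaving out FL let-7b array 2 left 8.

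The markers of other cells differed between the tissues too. With empty vector the summed level of 15 stromal markers was 10.2 to 14.1 in FL and 28.8 to 32.3 in BM, and that of 10 myeloid markers tested was 29.4 to 64.5 in FL and 9.76 to 10.5 in BM. Itgam was the brightest of these 10 (4.95 in FL, 3.09 in BM). limma called 4 of the 10 higher in FL and 1, Lyz2, lower (-2.51 ± 0.61), against 40.1% and 19.5% of all genes. S100a9 lay at -7.83 and -1.48 on the 2 FL empty vector arrays. Of the myeloid markers, Mpo and Cebpe were not well above background on enough arrays to be tested, Lyz2 was not well above background in FL, and S100a8 and S100a9 were not in BM empty vector cells. The summed level of 6 erythroid markers was 2.27 to 3.59 in FL and 3.53 to 3.62 in BM, with Alas2 too dim to be tested, Klf1 not well above background in FL and Gata1 not in BM. Tfrc was the brightest of the 6 (1.32 in FL, 1.78 in BM) and did not pass (-0.46 ± 0.30). limma called 3 of the 6 higher in FL and 0 lower (median 1.38), against the same shares of all genes. The 3 were Gata1 (2.33 ± 0.28), Hba-a1 (2.17 ± 0.55) and Slc4a1 (2.33 ± 0.64). With quantile scaling 1 was higher and 1 lower (median 0.33). The 11 pro-B markers summed to 906 to 1201 in FL and 446 to 472 in BM. The brightest in FL were Vpreb1 (8.65, against 7.47 in BM) and Cd79b (8.39, against 6.09). limma called 6 of the 11 higher in FL and 1 lower (median 0.83), against the same shares of all genes. With quantile scaling 4 were higher and 3 lower (median -0.13). The part of these cells in the mitosis values was not tested.

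Base composition of the probes was set against the tissue difference. Across all 53 kept probes of the mitosis genes, the percentage of G and C bases correlated with it at r = 0.0594 (rho = 0.0641). Across the 37 probes used for the members, which share the same arrays, the share of G and C bases correlated with the FL minus BM difference at r = 0.211 (rho = 0.224). Across the 28410 kept probes it correlated at r = 0.305 (rho = 0.345). Probes with 15 to 38.3% G and C had a median of -0.62 over 10 members and -0.13 over all probes. Those with 40 to 45% had a median of -0.37 over 25 members and 0.57 over all probes, and those with 46.7% or more had 0.25 over 2 members and 1.18 over all. The part of base composition in the mitosis values was not tested.

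**Figure D4:**
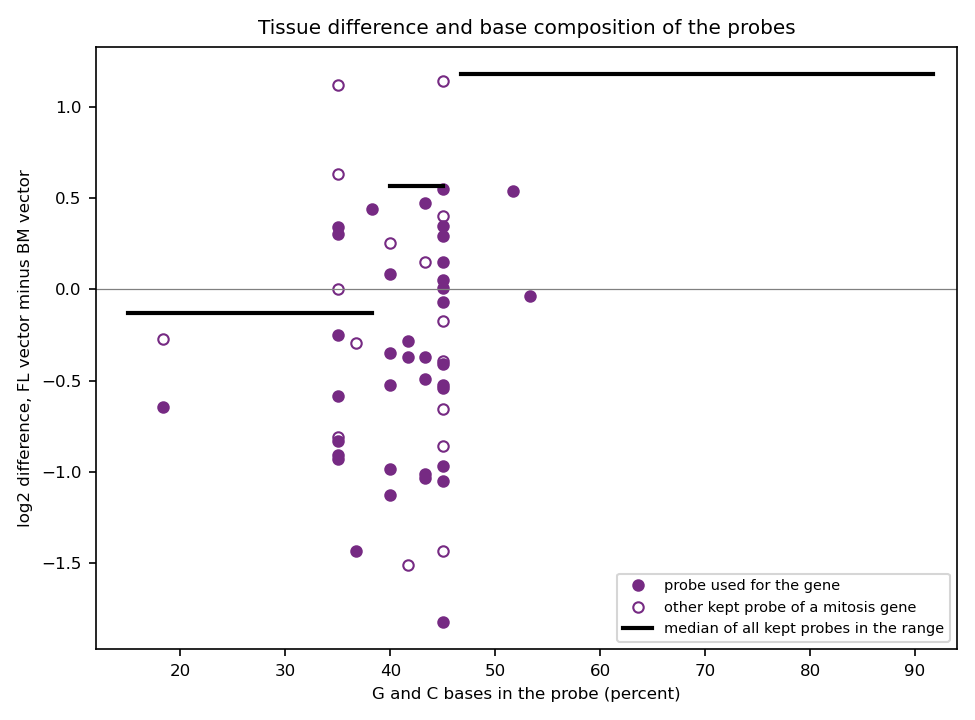
FL minus BM log2 difference with empty vector against the percentage of G and C bases in the probe, for the 37 probes used (filled) and the other kept probes of mitosis genes (open), with black bars at the median of all kept probes in 3 ranges of composition (-0.13, 0.57 and 1.18). Most member probes lie below the bar of their range.

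Further genes of cell division, outside the 38, were read in the same fit, where 19.5% of all genes were lower and 40.1% higher in FL with empty vector and the median of all genes was 0.52. Of the other kinetochore, condensin and spindle genes, 37 of 38, 6 of 8 and 28 of 34 lay below that median. Of 38 other kinetochore and centromere genes, 23 were lower and 1 higher in FL with empty vector (median -0.87), led by Zwilch, a subunit of the complex that brings dynein to kinetochores (-2.34 ± 0.14), the Mis12 complex genes Nsl1 (-1.41 ± 0.14) and Dsn1 (-1.14 ± 0.12), and Sgo2a, a shugoshin (-2.64 ± 0.30). Of 8 condensin genes, which compact chromosomes, 5 were lower and 2 higher (median -0.96), with Smc2 at -2.35 ± 0.27 and Smc4 at -2.32 ± 0.39. Of 34 other spindle and cytokinesis genes, 17 were lower and 3 higher (median -0.45), with Ckap2 (-1.52 ± 0.13), Mastl, the Greatwall kinase (-1.41 ± 0.14), and Aspm (-1.18 ± 0.15) lower and the kinase Cit higher (1.22 ± 0.15). The medians of these lists stayed below 0 with quantile scaling (-0.98, -1.21 and -0.66) and with normexp (-0.65, -0.59 and -0.58). The median of all genes was 0.04 with quantile scaling and 0.98 with normexp.

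Of 16 genes of the anaphase-promoting complex, 5 were higher and 4 lower, against the same 40.1% and 19.5% of all genes. With quantile scaling 3 were higher and 5 lower. The median of the 16 was 0.11, or -0.06 with quantile scaling, and 11 of the 16 lay below the median of all genes. Anapc2, its cullin subunit, was higher in FL (2.16 ± 0.18). Of 25 transcription regulators of late cell cycle genes, 10 were lower and 4 higher (median -0.14) and 22 lay below the median of all genes, with E2f3 (-1.62 ± 0.14), its partner Tfdp1 (-1.84 ± 0.20), E2f4 (-0.84 ± 0.12) and Lin9, a MuvB subunit (-1.42 ± 0.24), lower. Of 49 S phase genes, 19 were lower and 6 higher (median -0.31) and 42 lay below the median of all genes, led by Dbf4, which activates the Cdc7 kinase (-1.19 ± 0.12), and Orc6, of the origin recognition complex (-1.69 ± 0.18), while Pold2, a DNA polymerase delta subunit, was higher (1.04 ± 0.12).

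With let-7b and with Lin28b, limma called 0 genes of these 6 lists. With let-7b their medians were 0.15 for kinetochore, 0.18 for spindle, 0.22 for condensin, 0.14 for regulators, 0.06 for S phase and -0.05 for the anaphase-promoting complex. With normexp, S phase (-0.27), spindle (-0.06), condensin (-0.04) and regulators (-0.02) turned below 0. Among regulators, Cdkn1a, the inhibitor p21 of cyclin-dependent kinases, differed by 0.77 ± 0.20 with let-7b (limma adjusted p = 0.324), E2f6, a repressor, by -0.47 ± 0.12 and E2f7, also a repressor, by 0.42 ± 0.13. E2f5 differed by -0.46 ± 0.17 with let-7b and by 0.64 ± 0.17 with Lin28b (limma adjusted p = 1).

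**Figure D5:**
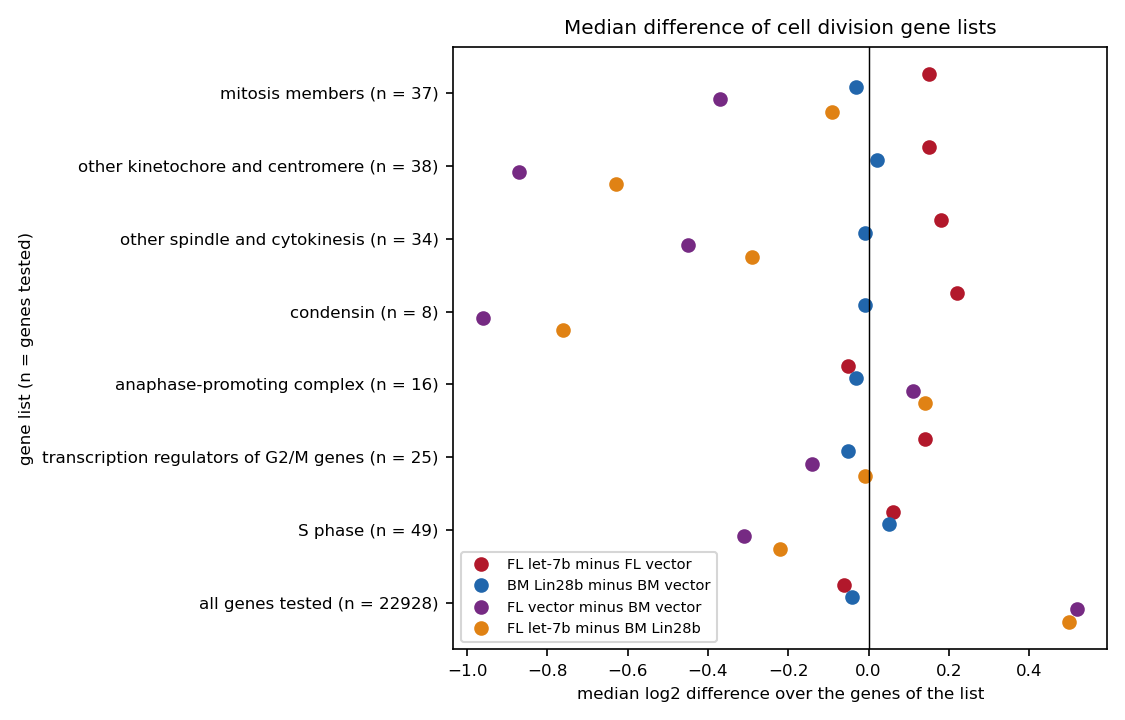
Median log2 difference over the genes of each cell division list (rows, n = genes tested) in the 4 comparisons, each over 2 arrays per group. The mitosis members, kinetochore, spindle, condensin and S phase lists lie below 0 between the tissues while all genes lie at 0.52 and 0.50, and with Lin28b every list lies within 0.05 of 0.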

How the data were processed

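The scanner files hold spot intensities of 1-colour (Cy3) arrays, from 100 ng of total RNA amplified and labelled. Agilent Feature Extraction 9.5.3.1 had corrected these deposited intensities for background, per the file headers, which also name mouse build mm9. The authors also deposited a table of normalized log2 values, whose normalization and centring are not given in the sources used here. Its column medians differed by tissue (6.13 to 6.14 in FL, 7.14 to 7.16 in BM), so it was used within a tissue only.

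Processed signals of the 43020 non-control spots were scaled to each array's 75th percentile and log2 transformed, copies of a probe were averaged, and 31 probes with an outlier spot were left out. That left 28410 of 39429 probes after a filter that asked for signal well above background on at least 2 arrays. The kept probe of highest mean stood for each gene, which gave 22928. limma 3.58.1 (R 4.3.3) fitted 1 mean per group over 8 arrays (prior degrees of freedom 1.69), with Benjamini-Hochberg adjustment. The fit was tested on simulated data. Plots were made with matplotlib 3.10.9.

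The members and lists were chosen with earlier results of these data known, so no p is given for a list. All 38 members could be named. Of the other lists, up to 4 genes with the smallest p in a comparison could be, and promoters were printed for the 2 members of smallest p with let-7b and the 2 between the tissues. Replicates are individual sorts per the series' design text, and 2 arrays a group limit the precision. The alternatives were other scaling (quantile), background (normexp), filters, variance model, probe rule, arrays in the fit, the replicate block, the authors' table, and leaving out each array.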

Additional observations from a re-analysis of the deposited data

How the results depend on the processing

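With let-7b, with Lin28b and for the difference of both effects, 0 members were called in every setting run. With the replicate number as a block (in FL the same as the slide), 0 members were called with let-7b, with Lin28b and for the difference of effects. The block leaves the fitted differences as they were by construction and changes their errors alone. The labels do not say that the numbers pair the samples; same-numbered arrays deviated together in FL (correlation 0.517) and not in BM (-0.0553). Between the tissues with empty vector, 20 members were called as reported, 8 with normexp, 8 with only the 4 arrays compared, and 7 to 23 when single arrays were left out. For FL let-7b against BM Lin28b the range was 4 to 20. Fewer arrays leave fewer degrees of freedom.

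Medians moved to -0.51 with quantile scaling between the tissues, and to -0.29 with quantile and -0.68 with normexp for FL let-7b against BM Lin28b, with -0.17 to -0.05 when an array was left out. With normexp the let-7b median was -0.18 and that of the difference of effects -0.20. That difference was 0.08 with probes averaged and 0.08 to 0.19 without single arrays, and the Lin28b median was -0.08 to 0.00. Signs of called genes turned with normexp for FL let-7b against BM Lin28b in Ccnb2 (-0.23), Cdc25b (-0.17) and Racgap1 (-0.03), and with averaged probes between the tissues in Tpx2 (0.36) and Cdk1 (0.07). The cause was not tested beyond the probes that disagree. The authors' table was not run between tissues.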
